A study of Macaca mulatta with 4 samples.

Results

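Neuronal firing switches on transcription in waves. A first wave of transcription factors is followed by later genes whose products are mostly secreted or placed at the synapse, and 10 of these later genes are described here: BDNF, INHBA, NPTX1, NPTX2, VGF, SCG2, PCSK1, HOMER1, NRN1 and RGS4. They were chosen by known role, with earlier results of these data known, and matched by their exact gene symbol in the count table. All 10 were found among 33618 genes, and all 10 were among the 17693 genes that passed the filter on low counts.

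The tissue was prefrontal cortex of infant wild type rhesus macaques (Macaca mulatta). The control group (agent given as none) and the group exposed to sevoflurane, an inhaled general anaesthetic, had 2 RNA-seq libraries each, numbered 2 and 3. Per the labels' protocols, sevoflurane was inhaled at about 2.5 to 3% for 4 hours on 3 occasions, the first at about postnatal day 7 and the others 14 and 28 days later. Cortex was collected straight after the last occasion. The handling of control animals, such as time of day, fasting or carrier gas, and the number of animals behind the libraries are details not given in the sources used here, so sevoflurane and any such difference cannot be told apart. P-values measure the spread between these libraries, which may be technical.

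Total counts were 7793757 to 11706115 per library. Control replicate 3 was the shallowest and stood apart from the others on the first principal component, which held 52.3% of the variance. All 5 excitatory, 5 inhibitory and 5 general neuron markers had counts in the libraries. The summed level of the 5 general neuron markers was 5930 and 6620 CPM in controls and 6940 and 6990 CPM after sevoflurane, with 0 of 5 called. MAP2 and SYT1 were above the controls in both sevoflurane libraries, while RBFOX3, SNAP25 and STMN2 overlapped and were highest in control replicate 3. The summed level of the 5 excitatory neuron markers was 4400 and 6450 CPM in controls and 5160 and 4930 CPM after sevoflurane, and overlapped. That of the 5 inhibitory neuron markers was 362 and 354 CPM in controls and 439 and 367 CPM after sevoflurane. Both sevoflurane libraries lay above the controls in the inhibitory sum, with 0 of 5 called. CPM are counts relative to library size, scaled between libraries by TMM, the trimmed mean of M values. The summed level of 6 oligodendrocyte markers was 8920 and 14200 CPM in controls and 2320 and 3480 CPM after sevoflurane, with 6 of 6 called lower. For 7 meningeal and perivascular fibroblast markers it was 213 and 102 CPM against 525 and 192 CPM, with 1 of 7 called higher. The summed level of 4 microglia markers was 312 and 264 CPM in controls and 182 and 209 CPM after sevoflurane, with 1 of 4 called lower, and that of 3 oligodendrocyte precursor markers was 390 and 393 CPM against 259 and 295 CPM, with 0 of 3 called. No marker in these lists was at 0 in all libraries.

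As background, BDNF is a neurotrophin released from dense core vesicles that signals through the receptor TrkB (NTRK2), and its transcription in cortical neurons depends on calcium entry. Activin A, a dimer of the INHBA product, is a TGF-beta family ligand that signals through SMAD proteins. Neuronal pentraxins 1 and 2 (NPTX1, NPTX2) cluster AMPA receptors at synapses. VGF and secretogranin II (SCG2) are granins, cut into neuropeptides by prohormone convertases such as PCSK1. HOMER1 scaffolds metabotropic glutamate receptors, NRN1 (neuritin) is a membrane-anchored protein that promotes neurite growth, and RGS4 shortens signalling by Gi and Gq proteins.

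Of the 10 genes, 1 was lower after sevoflurane, 0 were higher and 9 did not pass the test. The gene that fell was INHBA, to 0.397 of its control mean. The test was edgeR's quasi-likelihood F test over all 17693 genes, and genes with a Benjamini-Hochberg adjusted p under 0.05 were called. Over all tested genes 0.599% were called, 0.537% lower and 0.0622% higher. The 2 groups did not overlap for 3 of the 10 genes (INHBA, BDNF and VGF, each with controls above), nor for 41.2% of all tested genes. An unadjusted p under 0.05 was found for the same 3 genes and for 9.92% of all tested genes. The median log2 fold change was -0.18 over the 10 genes and 0.00 over all tested genes, and the 10 ranged from -1.33 to 0.15. When control replicate 2 was left out, 4 of the 10 were called lower (INHBA, VGF, NPTX1 and RGS4), beside 2.37% of all tested genes in that setting. By contrast, 0 of the 10 were called on scaling by library size alone or on dropping the filter. These are tissue homogenates, in which fewer cells of a type and less RNA per cell cannot be told apart.

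**Figure D1:**
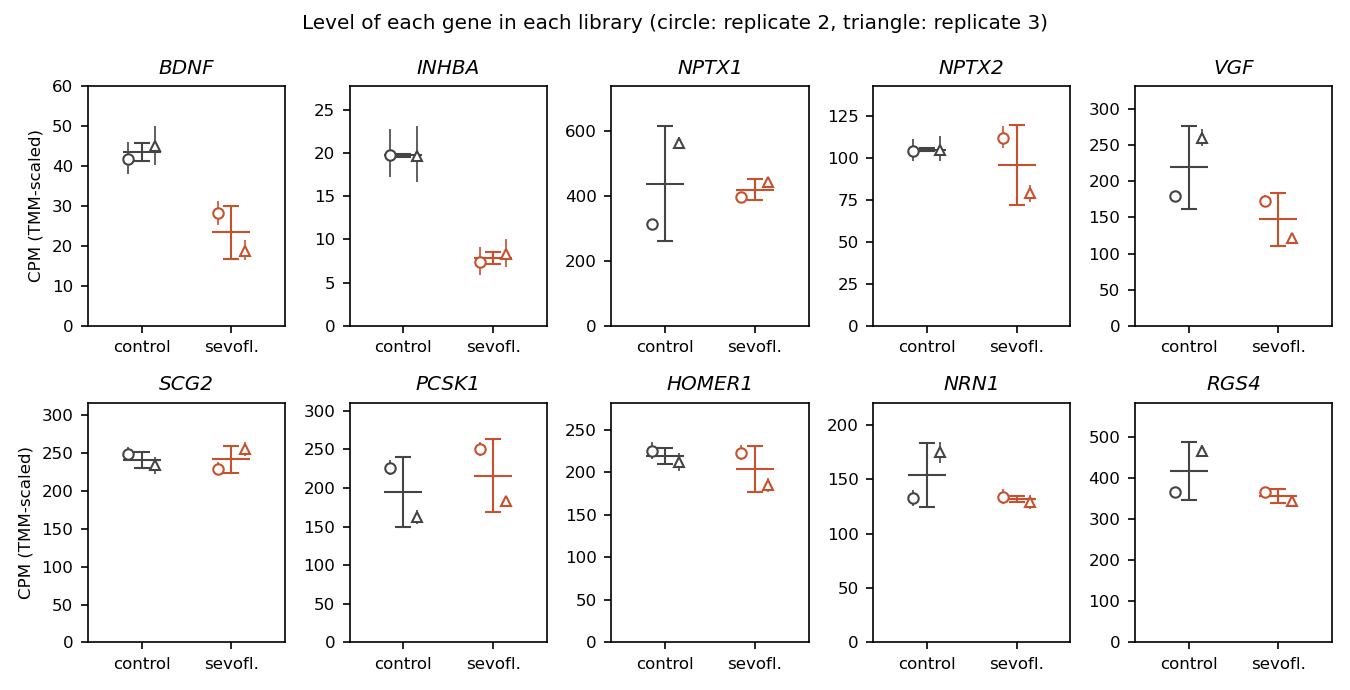
Level of each of the 10 genes in CPM (vertical axes start at 0 and differ between genes) in controls (grey) and after sevoflurane (orange). Circles are replicate 2 and triangles replicate 3 with exact Poisson 95% counting intervals, and horizontal marks with capped bars are the mean ± SD of 2 libraries. The groups are apart for INHBA, BDNF and VGF and overlap for the other genes.

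Among the ligands, INHBA had 19.8 and 19.6 CPM in control replicates 2 and 3, and 7.35 and 8.31 CPM in sevoflurane replicates 2 and 3. The groups did not overlap, and within each group the libraries were within counting error of each other, with 95% Poisson intervals of 17.2 to 22.7 and 16.6 to 23.1 CPM in controls and 5.88 to 9.07 and 6.75 to 10.1 CPM after sevoflurane. These intervals cover counting error alone, and the counts behind them were 203, 148, 86 and 98 reads, among which 86 was the lowest count of any of the 10 genes. INHBA fell, with a mean of 19.7 ± 0.13 CPM in controls and 7.83 ± 0.684 CPM after sevoflurane (SD, n = 2 per group). Its log2 fold change was -1.33 (SE 0.23, 95% interval -1.85 to -0.82, edgeR adjusted p = 0.0431). As a fold, that interval ran from 0.278 to 0.568 of the control level. INHBA ranked 94 of 17693 by p, so it lay close to the threshold. The call was lost on leaving out sevoflurane replicate 2 (adjusted p = 0.0846), on scaling by library size alone (0.0614) and on dropping the filter (0.0795), while its log2 fold change stayed between -1.49 and -1.24 in all 13 alternative settings. In the RefSeq gene table a long noncoding RNA, LOC106997440, overlaps INHBA. It had 15, 1, 24 and 35 counts in the same order of libraries, and the division of reads between them is a detail not given in the sources used here.

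BDNF had the next lowest p among the 10 genes and did not pass the test. It had 41.9 and 45.1 CPM in control replicates 2 and 3, and 28.2 and 18.8 CPM in sevoflurane replicates 2 and 3. Both control libraries lay above both sevoflurane libraries, and the sevoflurane libraries differed from each other beyond counting error, with Poisson intervals of 25.2 to 31.4 and 16.4 to 21.5 CPM. The mean was 43.5 ± 2.28 CPM in controls and 23.5 ± 6.62 CPM after sevoflurane (SD, n = 2 per group). The log2 fold change of BDNF was -0.89 (SE 0.21, 95% interval -1.37 to -0.40). This did not pass over all genes (edgeR adjusted p = 0.149), although the interval, which is not adjusted for the number of genes, lay below 0. The value depended on which sevoflurane library was used. It was -1.21 without sevoflurane replicate 2 (adjusted p = 0.0168) and -0.62 without sevoflurane replicate 3 (adjusted p = 0.671). By DESeq2 BDNF was called (adjusted p = 0.0307), as it was by edgeR's likelihood ratio test (0.0137), and by limma-voom it was not (0.121). The gene has many alternative promoters, of which the activity-driven ones cannot be separated in counts per gene. The RefSeq table places 1 long noncoding RNA over BDNF that has no row of its own in the count table.

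**Figure D2:**
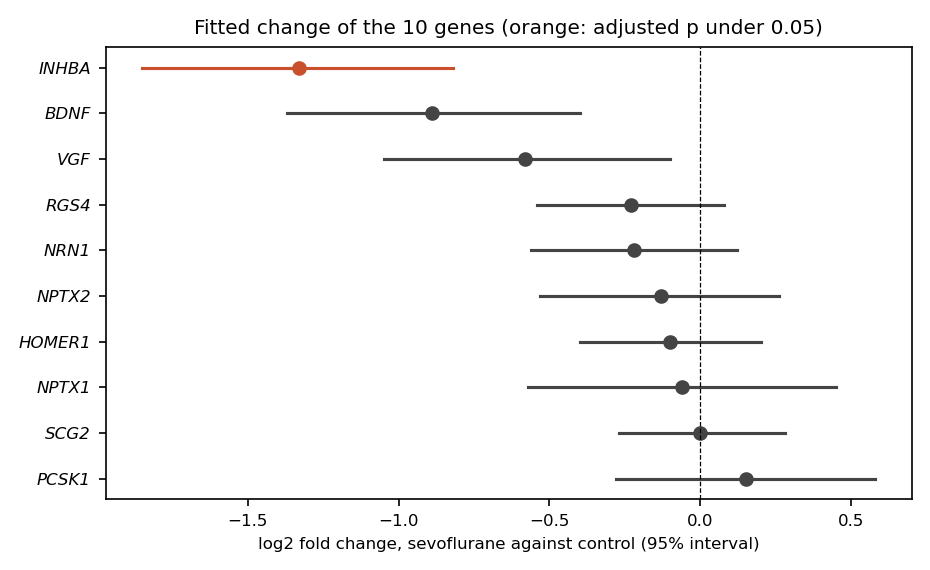
Log2 fold change of each of the 10 genes, sevoflurane against control, with its 95% interval from the fit (not adjusted for the number of genes). INHBA, in orange, was the 1 gene with an adjusted p under 0.05, the intervals of BDNF and VGF also lay below 0, and the other 7 spanned 0.

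The granins differed from each other in their values. VGF had 179 and 260 CPM in control replicates 2 and 3, and 173 and 121 CPM in sevoflurane replicates 2 and 3. The groups did not overlap, but control replicate 2 and sevoflurane replicate 2 were close, with Poisson intervals of 171 to 187 and 166 to 181 CPM. The log2 fold change of VGF was -0.58 (SE 0.21, 95% interval -1.05 to -0.10, edgeR adjusted p = 0.378), and the gene did not pass. Without control replicate 3 it was -0.28 (adjusted p = 0.485), without sevoflurane replicate 3 it was -0.34 (adjusted p = 1), and without control replicate 2 it was -0.82 (adjusted p = 0.0231).

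SCG2, the other granin, had 249 and 234 CPM in control replicates 2 and 3, and 229 and 255 CPM in sevoflurane replicates 2 and 3. All 4 libraries lay within 1.11-fold of each other, the narrowest range among the 10 genes. The log2 fold change was 0.00 (SE 0.12, 95% interval -0.27 to 0.28, edgeR adjusted p = 0.994), so the interval allowed a level between 0.83 and 1.21 of control.

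PCSK1, the convertase that processes granins and other prohormones, had 226 and 163 CPM in control replicates 2 and 3, and 250 and 183 CPM in sevoflurane replicates 2 and 3. Replicate 2 was above replicate 3 in both groups, by 1.39-fold in controls and 1.37-fold after sevoflurane, and the groups overlapped. The log2 fold change was 0.15 (SE 0.19, 95% interval -0.28 to 0.58, edgeR adjusted p = 0.872). A similar gap between replicate 2 and 3 was seen in one group for BDNF, VGF and NPTX2, in which sevoflurane replicate 2 was 1.5-fold, 1.43-fold and 1.42-fold above sevoflurane replicate 3 while control replicate 2 was not above control replicate 3.

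The neuronal pentraxins did not pass. NPTX1 had 313 and 563 CPM in control replicates 2 and 3, and 396 and 442 CPM in sevoflurane replicates 2 and 3. Both sevoflurane libraries lay between the control libraries, which were 1.8-fold apart. The log2 fold change of NPTX1 was -0.06 (SE 0.23, 95% interval -0.57 to 0.45, edgeR adjusted p = 0.96). It was -0.43 (adjusted p = 0.0398) without control replicate 2 and 0.42 (adjusted p = 0.0523) without control replicate 3, so its direction turned with the control library that was kept. NPTX2 had 104 and 105 CPM in controls and 112 and 78.9 CPM in sevoflurane replicates 2 and 3. One sevoflurane library lay above the controls and the other below, and the log2 fold change was -0.13 (SE 0.18, 95% interval -0.53 to 0.26, edgeR adjusted p = 0.881).

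The synaptic and signalling genes overlapped between groups. HOMER1 had 225 and 212 CPM in control replicates 2 and 3, and 223 and 185 CPM in sevoflurane replicates 2 and 3. Its log2 fold change was -0.10 (SE 0.13, 95% interval -0.40 to 0.20, edgeR adjusted p = 0.882), so levels from 0.757 to 1.15 of control lay within the interval. The activity-induced short form, Homer1a, and the constitutive long forms come from one gene and share its count. A change in the short form alone could not be told apart here. A pseudogene inside HOMER1 in the RefSeq table, LOC709867, had its own counts, 162 and 60 in controls and 59 and 49 after sevoflurane. Relative to library size, these were 15.8 and 7.96 CPM in controls and 5.04 and 4.16 CPM after sevoflurane. The division of reads between LOC709867 and HOMER1 is a detail not given in the sources used here.

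NRN1 had 133 and 175 CPM in control replicates 2 and 3, and 134 and 129 CPM in sevoflurane replicates 2 and 3. RGS4 had 368 and 467 CPM in controls and 368 and 345 CPM after sevoflurane. In both genes control replicate 3 was the high library and the other 3 were close together. The log2 fold change was -0.22 for NRN1 (SE 0.15, 95% interval -0.56 to 0.12, edgeR adjusted p = 0.706) and -0.23 for RGS4 (SE 0.14, 95% interval -0.54 to 0.08, edgeR adjusted p = 0.666). Without control replicate 3 the values were -0.02 and -0.05. Without control replicate 2 they were -0.41 and -0.39, and RGS4 then had an adjusted p = 0.0479.

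Some libraries were the highest or the lowest for more of the 10 genes than others. Control replicate 3 was the highest library for 5 of them (BDNF, NPTX1, VGF, NRN1 and RGS4) and sevoflurane replicate 3 the lowest for 6 (BDNF, NPTX2, VGF, HOMER1, NRN1 and RGS4). Sevoflurane replicate 3 was below sevoflurane replicate 2 for 7 of the 10. Such shares were not computed for all tested genes, so these counts are not read as particular to the 10. Control replicate 3 also stood apart over all tested genes on the first principal component. The coefficient of variation estimated by the fit, which draws on all tested genes, ran from 10.1% (SCG2) to 17% (NPTX1). It is not the spread of each gene's own libraries, which in controls was 438 ± 177 CPM for NPTX1 and 241 ± 10.7 CPM for SCG2. The fitted value exceeded the largest counting error of each of the 10 genes. That error was 10.8% for INHBA, 6.71% for BDNF and from 1.69% to 3.55% for the other 8. Since the fitted values draw on all genes, this also held for INHBA (16.2%). Its own libraries lay within counting error of each other in each group.

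**Figure D3:**
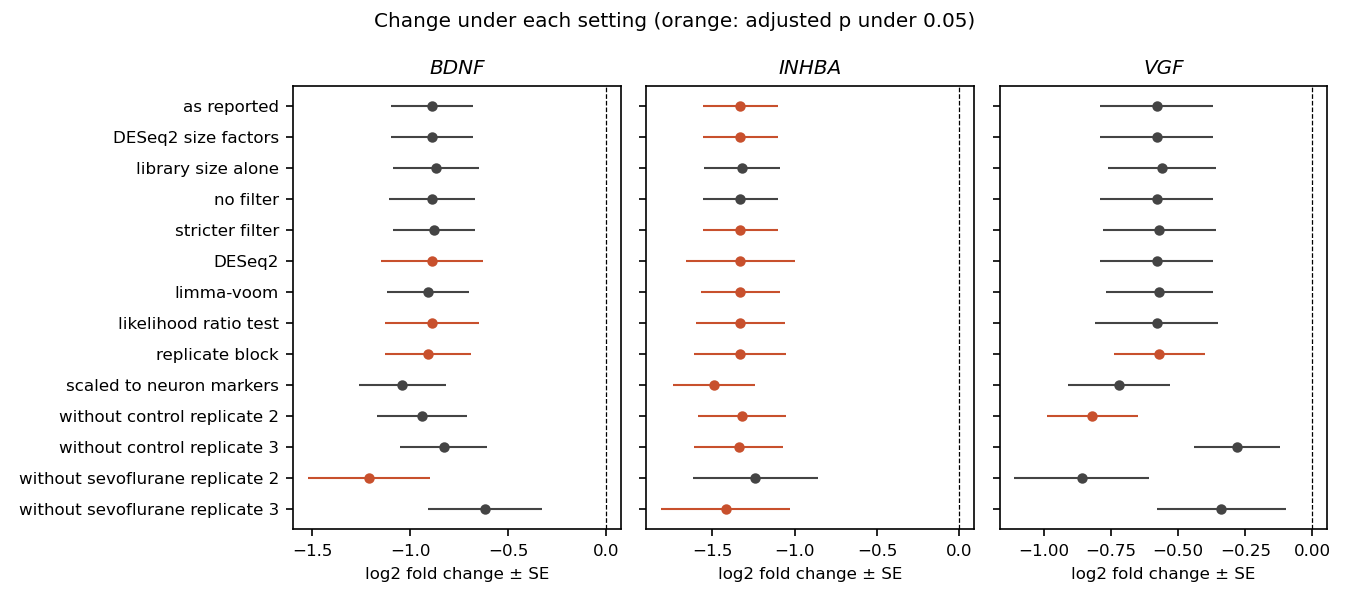
Log2 fold change ± SE of BDNF, INHBA and VGF as reported and under 13 alternative settings, with adjusted p under 0.05 in orange. The values of all 3 genes stay below 0, INHBA moves between -1.49 and -1.24, BDNF between -1.21 and -0.62 and VGF between -0.86 and -0.28.

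Ratios within a library do not depend on the scaling between libraries. Their absolute size depends on gene length and is not read here, and 2 libraries against 2 cannot give a two-sided exact permutation p below 0.333, so they are given without a test. The log2 ratio of INHBA to INHBB, the other activin beta subunit of brain, was 2.08 and 1.38 in controls and 0.62 and 0.55 after sevoflurane (replicates 2 and 3 in that order), so controls lay above. INHBB itself had 4.68 and 7.56 CPM in controls and 4.78 and 5.68 CPM after sevoflurane, and was not called (log2 fold change -0.21, SE 0.37, edgeR adjusted p = 0.913). The log2 ratio of BDNF to its receptor NTRK2 was -5.36 and -5.07 in controls and -5.72 and -6.21 after sevoflurane, with controls above. NTRK2 is also made by astrocytes, and its own log2 fold change was -0.17 (SE 0.11, edgeR adjusted p = 0.701).

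Of the 5 other ratios, 4 overlapped between groups. By level, the groups did not overlap for 41.2% of all tested genes, and such a share was not computed for ratios. The log2 ratio of PCSK1 to PCSK2, another convertase of dense core vesicles, was 1.52 and 0.84 in controls and 1.32 and 1.07 after sevoflurane, and that of SCG2 to SCG3, another granin, was 0.28 and 0.20 against 0.03 and 0.31. That of NPTX2 to NPTX1 was -1.59 and -2.42 in controls and -1.82 and -2.49 after sevoflurane, lower in replicate 3 of both groups. That of RGS4 to RGS7, another neuronal RGS protein, was 3.29 and 3.76 against 3.23 and 3.40. The log2 ratio of HOMER1 to HOMER2, a related scaffold, was 1.10 and 0.93 in controls and 0.62 and 0.57 after sevoflurane, and this 1 did not overlap. HOMER2 had 105 and 112 CPM in controls and 145 and 124 CPM after sevoflurane (log2 fold change 0.32, SE 0.14, edgeR adjusted p = 0.49), so neither gene passed the test.

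The summed general neuron markers were higher in both sevoflurane libraries than in both controls, mostly through MAP2 and SYT1. As an alternative chosen after seeing the data, the libraries were scaled to this sum. This moved the median log2 fold change of all tested genes by -0.16. On that scale INHBA had -1.49 (SE 0.25, edgeR adjusted p = 0.0192), BDNF -1.04 (SE 0.22, adjusted p = 0.0663) and VGF -0.72 (SE 0.19, adjusted p = 0.142), so 1 of the 10 was again called. Over all 17693 tested genes, 204 were called lower and 9 higher on that scale, against 95 and 11 as reported. The part of the oligodendrocyte, precursor, microglia and fibroblast markers in these values was not tested.

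The 10 genes were set beside 10 lists of related genes, which held 130 tested genes. Like the 10 genes, these lists were chosen with earlier results of these data known. The other late activity-regulated genes had 2 of 15 called lower and 0 higher, beside 0.537% lower over all tested genes. Their median log2 fold change was -0.23. TRIB1, a pseudokinase, had 71.3 and 64.7 CPM in controls and 18 and 14.4 CPM after sevoflurane, and fell by 2.07 on the log2 scale (SE 0.18, edgeR adjusted p = 0.0043). DUSP4, a MAP kinase phosphatase, had 51.3 and 26.7 CPM in controls and 8.46 and 7.04 CPM after sevoflurane (log2 fold change -2.34, SE 0.31, edgeR adjusted p = 0.0195). GPR3, a constitutively active receptor, had -1.41 (SE 0.27, adjusted p = 0.0627), and CRH, the stress neuropeptide, had -0.85 (SE 0.26, adjusted p = 0.271), and neither passed.

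The immediate early genes, mostly transcription factors of the first wave, had 7 of 16 called lower and 0 higher. Their median was -1.50, and 0.537% of all tested genes were called lower. EGR1 (-2.08), ARC (-1.76), EGR4 (-2.31) and NPAS4 (-3.24), a transcription factor that acts at BDNF promoters in mice, were among the 7. EGR2 (-1.92, edgeR adjusted p = 0.0524) and JUNB (-0.71, adjusted p = 0.152) did not pass. The constitutive regulators of this transcription, such as CREB1, MEF2C, SRF, calcineurin and CaM kinases, had 0 of 16 called and a median of 0.10. The smallest p values there belonged to PPP3CB, a calcineurin subunit (0.35, SE 0.13, adjusted p = 0.372), and ELK1, a partner of SRF (0.26, SE 0.14, adjusted p = 0.623). The difference between the 10 late genes and the immediate early genes was not tested, and the 2 sets share all libraries.

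**Figure D4:**
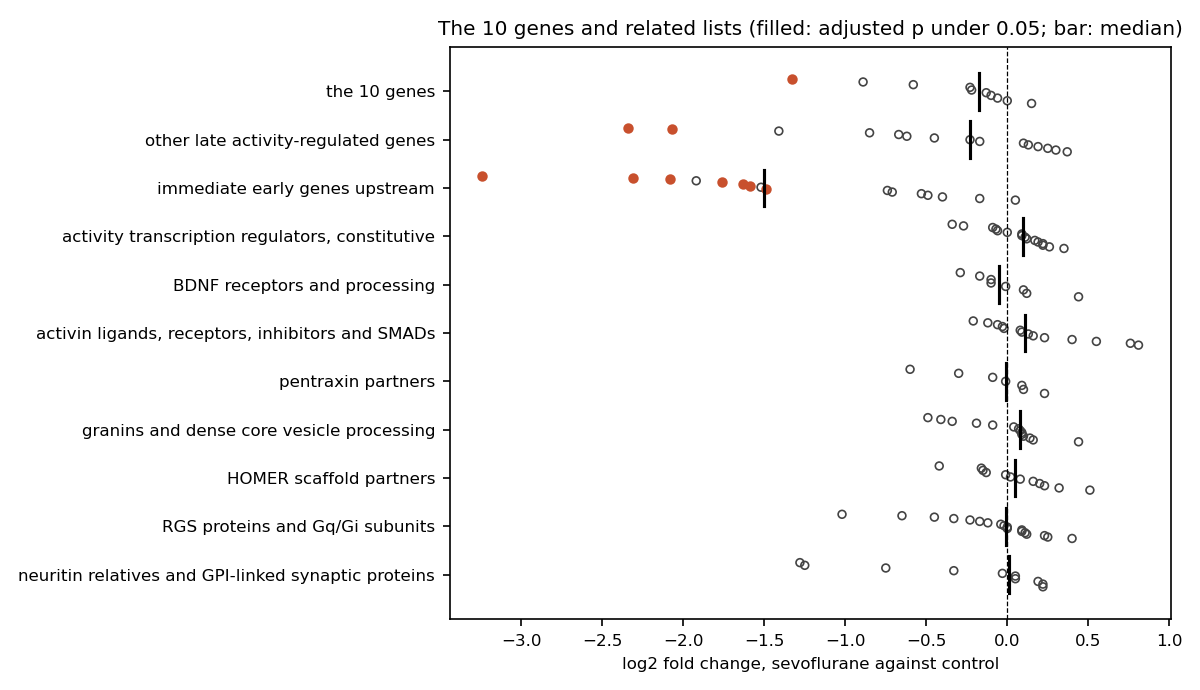
Log2 fold change of each tested gene, sevoflurane against control, in the 10 genes (top) and 10 lists of related genes. Filled orange points had an adjusted p under 0.05, open points did not, and bars are list medians, which were -0.18 for the 10 genes, -0.23 for other late activity-regulated genes and -1.50 for immediate early genes.

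In the 8 lists apart from the 2 of activity-induced genes, 0 of 99 tested genes were called by edgeR. An unadjusted p under 0.05 was found for 12 of the 99. Over all tested genes, 0.599% were called and 9.92% had an unadjusted p under 0.05. Among 14 genes of activin signalling (median 0.11), SMAD3, which carries the activin signal to the nucleus, had 0.40 (SE 0.12, edgeR adjusted p = 0.271) and TGFBR3, a co-receptor that binds inhibin, had 0.81 (SE 0.34, adjusted p = 0.483). The 8 tested genes of neurotrophin receptors and processing had a median of -0.05, and 0 of the 8 were called. The 7 pentraxin partners had a median of -0.01. Tenascin C (TNC), an extracellular matrix protein, had -0.60 (SE 0.12, adjusted p = 0.0658), the AMPA receptor subunit GRIA1 had 0.23 (SE 0.11, adjusted p = 0.573), and the pentraxin receptor NPTXR had 0.10 (SE 0.12, adjusted p = 0.851).

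The 14 genes of granins and dense core vesicle processing had a median of 0.08. BAIAP3, a vesicle trafficking protein, had 0.44 (SE 0.16, edgeR adjusted p = 0.377) and CPE, carboxypeptidase E, had -0.34 (SE 0.20, adjusted p = 0.651). The 12 HOMER partners had a median of 0.05, with the scaffold SHANK2 at -0.42 (SE 0.17, adjusted p = 0.441). The 18 RGS and G protein genes had a median of -0.01, with RGS11 at -0.65 (SE 0.20, adjusted p = 0.275) and GNAI2, a Gi alpha subunit, at -0.33 (SE 0.13, adjusted p = 0.419). Among 10 relatives of neuritin and membrane-anchored synaptic proteins (median 0.01), CNTN2, a contactin made by oligodendrocytes as well as neurons, had -1.28 (SE 0.24, adjusted p = 0.0549) and NTM, neurotrimin, had -0.75 (SE 0.27, adjusted p = 0.369).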

How the data were processed

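The authors deposited 1 table of unnormalised read counts, genes in rows and libraries in columns. The submitters' processing notes name HISAT2 as a tool. Its version, the read counter, the build and annotation, the use of strand and the treatment of multiply matching reads are details not given in the sources used here. No coordinates or sequences are printed. RefSeq's gene table of assembly T2T-MMU8v2.0 served for names and, through its own coordinates, for which genes overlap.

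The analysis used edgeR 4.0.16 in R 4.3.3 (filterByExpr with a minimum of 10 counts and 15 in total, TMM scaling, quasi-likelihood F test, group as the only term, Benjamini-Hochberg over all 17693 genes tested). Steps were tested on simulated data. Values are CPM, mean ± SD over 2 libraries. No pair of libraries agreed within sampling noise. Alternatives were DESeq2 1.42.0, limma-voom (limma 3.58.1), the likelihood ratio test, other scalings, filters and thresholds, a replicate block, and leaving out each library with the same genes tested. Leaving out a library leaves 1 in its group, which is assumed to vary like the other group. The 10 genes and the related lists were chosen with earlier results of these data known. Named list genes are the called ones (up to 4 by smallest p), the next 2 by p and the partners in the ratios. NPTXR was given outside this rule and was chosen after its values were seen. Values of a few list genes that this rule names are not reported here.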

Additional observations from a re-analysis of the deposited data

How the results depend on the processing

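The number of the 10 genes called lower was 1 as reported, 0 with library size alone, 0 with no filter, 2 by DESeq2, 2 by the likelihood ratio test, and 1 to 4 with 1 library left out. No gene of the 10 was called higher in any setting run. Over all genes, 95 lower and 11 higher became 57 and 3 with no filter, 219 and 60 by DESeq2, 304 and 137 by the likelihood ratio test, and 170 and 33 at an adjusted p under 0.1. Limma-voom called 7 higher, and scaling to neuron markers 204 lower. With 1 library left out, 121 to 420 were lower and 57 to 187 higher. The labels do not say whether the replicate numbers pair the libraries. The correlation of deviations was 0.009 for same numbers. It cannot decide this, since with 2 libraries per group the deviations within a group mirror each other. With the replicate block, 341 genes were lower and 170 higher, and 3 of the 10 were lower (INHBA, BDNF and VGF). BDNF, INHBA, VGF, NRN1 and RGS4 kept their sign in all 13 alternatives. Signs turned for the other 5, none of them called as reported. With 1 library left out, log2 fold changes ran from -0.43 to 0.42 for NPTX1, -0.41 to 0.10 for NPTX2, -0.07 to 0.08 for SCG2, -0.24 to 0.03 for HOMER1 and -0.09 to 0.41 for PCSK1. NPTX1 was 0.01 by limma-voom. Scaled to neuron markers, SCG2 was -0.15 and PCSK1 -0.01. Apart from the left-out libraries and the scaling, the cause of these changes was not tested. With 2 libraries per group, a change within the intervals given could be missed.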
